A study of Rattus norvegicus with 8 samples.

Results

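MVD and ACSS2 are 2 genes of lipid synthesis among the 28295 probe sets measured in rat pituitary tumour cells that received dopamine agonists. They were chosen by measured values: each was identified as the probe set whose ratio of intensity in MMQ cells with cabergoline (CAB) to MMQ control cells equals the fold printed for it in a gene list of the study, within a relative difference of 1e-06. This route was needed because the annotated gene names could not be relied on. Among probe sets annotated with 1 shared symbol there were 7969 pairs, whose median correlation across the 8 arrays was 0.0047 and 0.014 after every symbol had been moved to the next probe set. MVD matched 1 probe set with a relative difference of 5.02e-08, and the next closest probe set was 0.0642 away. ACSS2 matched 1 probe set with a relative difference of 9.256e-08, and the next closest was 0.0178 away. The difference between the CAB array and the control array of MMQ cells is therefore the choice itself, and it is given below as a description only. The CAB+BRC intensities of both genes in MMQ cells were also known when they were chosen. Results that use that array are therefore not free of the choice.

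Both cell lines are rat pituitary tumour lines. GH3 cells secrete prolactin and growth hormone, and MMQ cells secrete prolactin. Each line was profiled on 4 arrays, namely control cells, cells given bromocriptine (BRC), cells given CAB and cells given the combination (CAB+BRC), with 1 array per condition and no replicate. The single drugs were used at 50 μM, and a treatment time of 48 h is known for 4 arrays, GH3 control, GH3 BRC, MMQ control and MMQ CAB. The drugs were dissolved in DMSO and then diluted in serum-free medium. The dose of each drug in the combination and the time of the other 4 arrays were not found in the sources used here. Whether control cells received the DMSO or the serum-free medium was not found either. GH3 and MMQ cells were grown in different media, so line and medium cannot be told apart. Each array measured the RNA of a whole culture, so more RNA of a gene in every cell cannot be told apart from a larger share of cells that express it. In the viability assays of the study, 50 μM CAB for 48 h killed a larger share of MMQ than of GH3 cells. With BRC at that dose and time the order was the opposite. Viability of the cultures on the arrays was not found, and the part of cell death in the results was not tested. The identity of the lines could not be checked against prolactin or growth hormone, because those probe sets have no reliable name here. The array medians lay between 45.9 and 49.9. The GH3 control stood apart from the treated GH3 arrays: 510 probe sets were at least 2-fold apart between it and BRC and 687 between it and CAB, against 30 to 150 among the pairs of treated GH3 arrays compared. The part of this in the GH3 results was not tested, and they are given also for pairs without the GH3 control.

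MVD encodes mevalonate diphosphate decarboxylase, which makes isopentenyl diphosphate, the building block of cholesterol and of the isoprenoids that anchor small GTPases to membranes. ACSS2 encodes the acetyl-CoA synthetase of the cytosol and nucleus, which turns acetate into acetyl-CoA, the carbon source of the mevalonate pathway and of fatty acids and a donor for histone acetylation. Both genes are known targets of the sterol regulatory element-binding proteins (SREBPs), transcription factors that are released to the nucleus when sterols in the endoplasmic reticulum run low. The other genes of sterol and fatty acid synthesis could not be followed, because no probe set can be assigned to them.

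Since the 2 genes were high in the same arrays, their promoters are shown, from 250 bases before to 50 bases after the annotated start of transcription, as given by RefSeq on the rat build GRCr8. Both genes were found in that table by symbol. In the rat, Mvd lies on chromosome 19 from 67404911 to 67414974 on the minus strand and Acss2 on chromosome 3 from 164464124 to 164507607 on the plus strand. The Mvd window is chr19:67414925-67415224 on the minus strand. The Acss2 window is chr3:164464453-164464752 on the plus strand, and its start site lies 579 bases inside the gene's first annotated base. Capitals mark matches on either strand to CCAAT, the box bound by NF-Y, a factor that acts beside SREBPs at many sterol genes, and to GGGCGG, the GC box bound by Sp1.
Mvd: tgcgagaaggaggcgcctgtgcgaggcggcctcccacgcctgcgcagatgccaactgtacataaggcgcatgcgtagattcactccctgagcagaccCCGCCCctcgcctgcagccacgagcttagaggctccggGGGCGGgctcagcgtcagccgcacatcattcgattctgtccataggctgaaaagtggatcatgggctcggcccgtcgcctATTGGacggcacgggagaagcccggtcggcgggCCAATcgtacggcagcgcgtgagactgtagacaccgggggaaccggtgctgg
Acss2: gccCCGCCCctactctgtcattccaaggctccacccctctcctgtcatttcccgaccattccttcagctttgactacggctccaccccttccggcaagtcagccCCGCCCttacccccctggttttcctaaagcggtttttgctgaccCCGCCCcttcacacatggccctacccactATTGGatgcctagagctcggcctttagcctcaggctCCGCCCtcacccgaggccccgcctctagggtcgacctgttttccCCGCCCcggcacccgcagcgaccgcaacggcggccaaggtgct
The Mvd window held 2 matches to CCAAT, 1 of them on the opposite strand at -35 to -31 from the start site, and 2 matches to GGGCGG. In the Acss2 window there was 1 match to CCAAT, on the opposite strand at -73 to -69, and 5 matches to GGGCGG. Of the 33469 promoter windows of this length, 37.5% held CCAAT and 33.1% held GGGCGG, so either motif alone is common. The letters TCACNCCAC, a form of the sterol regulatory element, were in neither window and in 1.12% of all windows. No 2 of the marked matches overlapped, and a match describes letters only.

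MVD had its highest intensity in MMQ cells with CAB, at 1698, followed by MMQ cells with CAB+BRC at 939. It was at 259 in the MMQ control and at 197 in MMQ cells with BRC. In GH3 cells MVD was at 149.5 in the control, and BRC, CAB and CAB+BRC had 163, 119 and 141. All 4 GH3 arrays were thus below all 4 MMQ arrays, and within GH3 the highest and the lowest array were 0.45 apart on the log2 scale.
ACSS2 had the same 2 arrays on top, at 1331 in MMQ cells with CAB and 881 with CAB+BRC. Its lowest values were those of the other MMQ arrays, 184 in the control and 173 with BRC. In GH3 cells ACSS2 was at 237 in the control, and BRC, CAB and CAB+BRC had 279.7, 381 and 248. The GH3 arrays of ACSS2 therefore lay between the MMQ arrays with and without CAB, a different place from that of MVD.

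**Figure D1:**
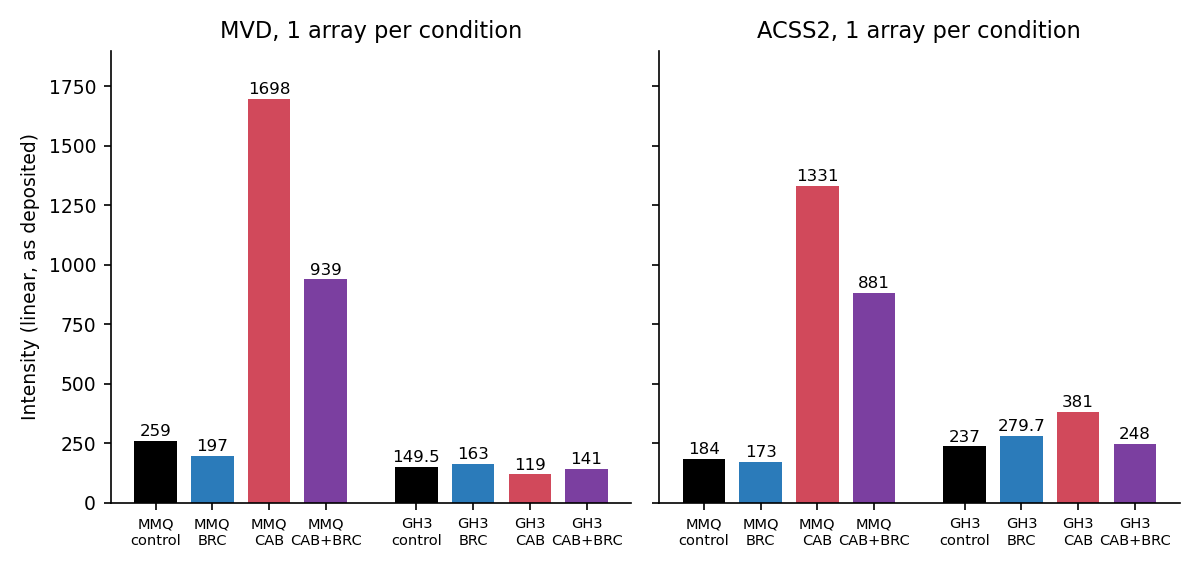
Intensity (linear axis from 0) of MVD on the left and ACSS2 on the right in each of the 8 arrays, 1 bar per array with its value above it. The bars of MMQ cells with CAB (1698 and 1331) and with CAB+BRC (939 and 881) stand above all others, while ACSS2 in GH3 cells with CAB reaches 381 and MVD there is the lowest of its 8 bars at 119.

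With 1 array per condition no level has an error of its own. As a measure of spread, the distance between CAB+BRC and the added effects of its drugs had a standard deviation of 0.300 on the log2 scale in MMQ cells and 0.459 in GH3 cells, over the 14147 probe sets whose mean exceeded the median. In the order of the levels in MMQ cells, the step from CAB+BRC down to the control was 1.86 for MVD and 2.25 for ACSS2 on the log2 scale (of intensity + 1, here and in all differences below). The step from the control down to BRC was 0.39 for MVD and 0.09 for ACSS2. Every step in this order involves one of the arrays of the identifying pair, so these are not set against that standard deviation. In GH3 cells the steps between neighbours in the order were at most 0.24 for MVD and 0.44 for ACSS2. From the highest to the lowest GH3 array the range was 0.45 for MVD and 0.68 for ACSS2. The standard deviation is for a sum over more arrays than a step holds, so the GH3 steps are not set against it either.

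The first question is whether CAB changed the 2 genes in MMQ cells. Between the CAB array and the control array, the pair that identified the genes, the log2 difference was 2.71 for MVD and 2.85 for ACSS2. In this pair 1.08% of all probe sets were at least 2-fold higher, and nothing is read from it here. CAB+BRC against BRC compares CAB with no CAB where both arrays have BRC, and it shares no array with that pair. The BRC dose of the combination and the time of either array were not found, so more than CAB may differ between them. MVD was at 939 against 197, or 4.77-fold higher, and ACSS2 at 881 against 173, or 5.09-fold higher. Both genes were thus at least 2-fold higher in a pair where 0.869% of all probe sets were, with 22 probe sets farther up than MVD and 17 farther up than ACSS2.
For an error, limma was fitted to 6 arrays, the 4 of GH3 cells and these 2 of MMQ cells. Its 1 residual degree of freedom measures how far GH3 CAB+BRC lay from additivity, and the MMQ arrays are assumed to vary as much. limma also draws each gene's variance towards a value shared over the tested probe sets, which counts as 7.07 further degrees of freedom. Most of the weight behind these errors is thus not from the gene's own arrays. MVD rose with CAB in the presence of BRC, with a log2 effect of 2.25 (standard error 0.257, 95% interval 1.65 to 2.8, adjusted p = 0.0256 in limma). ACSS2 rose by a log2 effect of 2.34 (standard error 0.332, 95% interval 1.57 to 3.10, adjusted p = 0.0332 in limma). Both members passed, where 0.297% of the 14147 tested probe sets passed as higher, which is 42 probe sets. The MMQ CAB+BRC values were known when the genes were chosen, so these p-values are not free of the choice. The calls depended on the filter and the scale: with all probe sets in the fit the adjusted p was 0.196 for MVD and 0.207 for ACSS2, and with each array centred on its median it was 0.0470 and 0.0596.

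**Figure D2:**
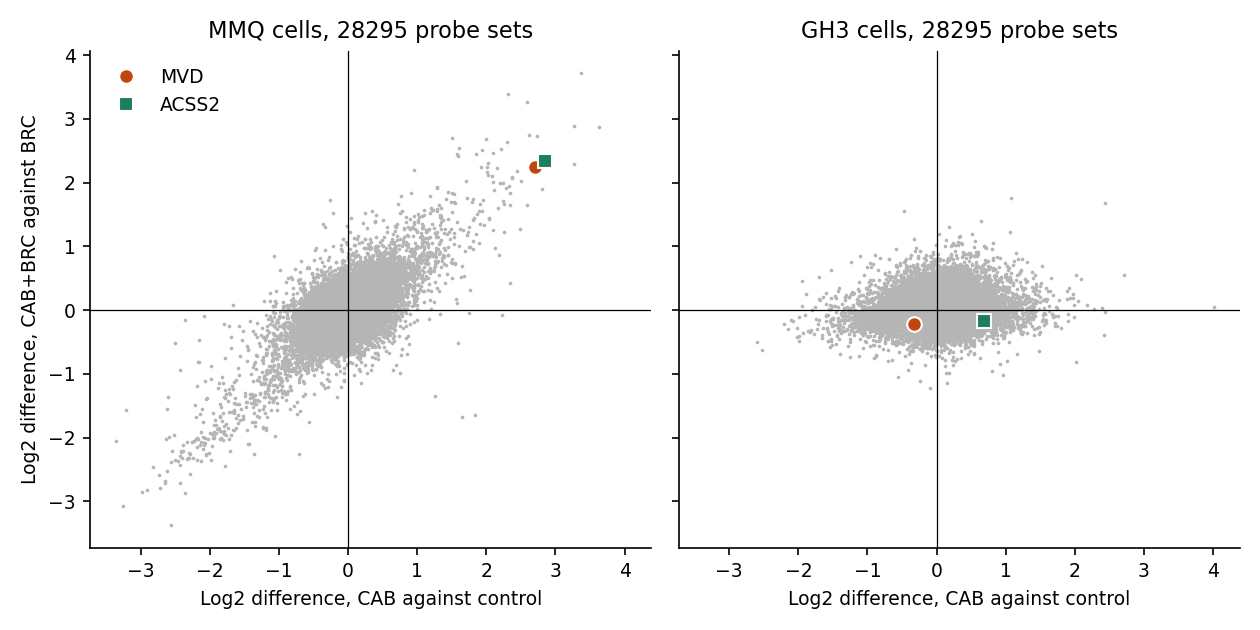
Log2 difference of CAB against control (horizontal axis) and of CAB+BRC against BRC (vertical axis) for all 28295 probe sets in MMQ cells on the left and GH3 cells on the right, 1 grey point per probe set. MVD (circle, 2.71 and 2.25) and ACSS2 (square, 2.85 and 2.34) lie at the upper right end of the MMQ cloud and inside the GH3 cloud.

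A further question is what BRC did to the 2 genes in MMQ cells, alone and on top of CAB. Against the control, BRC alone gave a log2 difference of -0.39 for MVD and -0.09 for ACSS2. No member was 2-fold apart in this pair, where 0.262% of all probe sets were. On top of CAB, MVD was at 939 against 1698 and ACSS2 at 881 against 1331, log2 differences of -0.85 and -0.59. Neither reached 2-fold, as 0.721% of all probe sets did. The CAB array was high for both genes by their choice, which favours a lower value in the other array of this pair, and nothing is read from its share. Both genes had a lower value with BRC in both pairs, though in the pair on top of CAB the choice favours this. In BRC against control, 10.8% of all probe sets were at least as far apart as MVD and 69.1% as ACSS2. These pairs use the CAB array and the control array of MMQ cells once each. Their mean takes both with the same sign, so the size of this mean does not depend on the difference that identified the genes.
In limma over all 8 arrays, with the drugs additive within each line, that mean BRC effect in MMQ cells was -0.62 for MVD (standard error 0.156, 95% interval -1.0 to -0.25, adjusted p = 0.297 in limma, unadjusted p = 0.00622). It was -0.34 for ACSS2 (standard error 0.231, 95% interval -0.90 to 0.22, adjusted p = 0.625 in limma). Neither gene passed, and limma called 0 probe sets (0%) for BRC in MMQ cells, with 1663 at an unadjusted p under 0.05. The errors of this fit come in part from the departure of MMQ CAB+BRC from additivity, which contains the identifying difference. The standard errors, intervals and p-values are therefore not free of the choice. Leaving out the MMQ control or the MMQ BRC array gave MVD an effect of -0.85, and leaving out MMQ CAB or MMQ CAB+BRC gave -0.39. Each of these is the difference of the single pair that remains, so it is no separate check and depends on an array of the identifying pair.
CAB+BRC remained above the control, 3.63-fold for MVD and 4.79-fold for ACSS2, in a pair where 1.39% of all probe sets were at least 2-fold higher. This pair uses the MMQ control of the identifying ratio, so the folds are a description. On the linear scale CAB added 1440 intensity units of MVD without BRC and 742 with it, or 51.5% of the first amount. For ACSS2 these were 1147 and 708 units, or 61.7%. The first amount is the difference by which the genes were chosen as high, so a smaller second amount follows in part from the choice. CAB+BRC departed from additivity by -0.46 for MVD and -0.51 for ACSS2 on the log2 scale, which contains that same difference with a negative sign and is likewise a description. CAB against BRC at 50 μM, which uses the CAB array of the identifying pair and for which the time of the BRC array is not known, gave log2 differences of 3.10 for MVD and 2.93 for ACSS2, with 1.07% of all probe sets at least 2-fold higher.

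In GH3 cells neither gene was 2-fold apart in any pair of arrays whose labels differ by 1 drug or in CAB against BRC. CAB against control gave a log2 difference of -0.33 for MVD and 0.68 for ACSS2, in a pair where 2.43% of all probe sets were at least 2-fold apart. With BRC in both arrays, CAB+BRC against BRC gave -0.21 for MVD and -0.17 for ACSS2, where 0.106% of all probe sets were 2-fold apart. MVD was thus lower with CAB in both pairs and ACSS2 higher in the first and lower in the second.
BRC against control gave 0.12 for MVD and 0.24 for ACSS2, with 1.80% of all probe sets 2-fold apart. On top of CAB it gave 0.24 for MVD and -0.62 for ACSS2, with 0.163% 2-fold apart and 344 probe sets farther down than ACSS2. The GH3 CAB array is the one in which ACSS2 stood apart, since the other 3 GH3 arrays lay between 237 and 279.7. Relative to the GH3 control, the log2 change of MVD minus that of ACSS2 was -1.01 in the CAB array, against -0.11 with BRC and -0.15 with CAB+BRC. In GH3 cells CAB+BRC departed from additivity by 0.12 for MVD and -0.85 for ACSS2, where the standard deviation was 0.459. Of the 14147 probe sets whose mean exceeded the median, 76.0% departed at least as far as MVD and 6.84% as ACSS2.

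**Figure D3:**
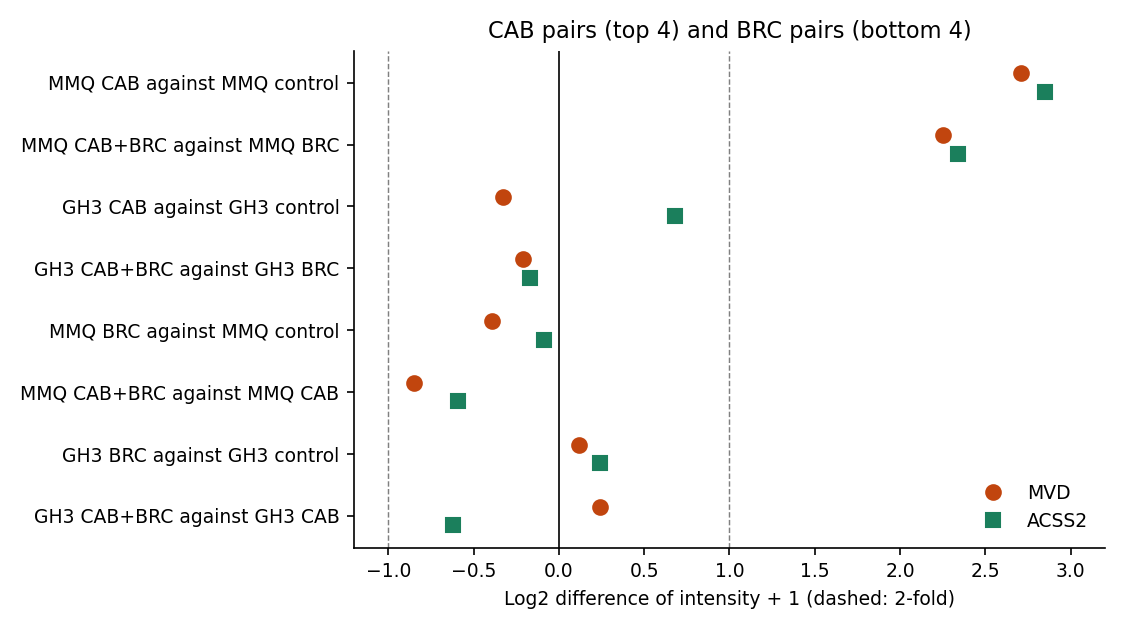
Log2 difference of MVD (circles) and ACSS2 (squares) in 8 pairs of single arrays, the first array against the second, with dashed lines at 2-fold. The MMQ CAB pairs lie between 2.25 and 2.85, the GH3 CAB pairs between -0.33 and 0.68, and no BRC pair reaches 2-fold.

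In the 6-array limma fit the CAB effect in GH3 cells was -0.27 for MVD (95% interval -0.69 to 0.15, adjusted p = 0.805 in limma) and 0.25 for ACSS2 (95% interval -0.29 to 0.79, adjusted p = 0.847 in limma). The BRC effect was 0.18 for MVD (95% interval -0.23 to 0.60, adjusted p = 0.847 in limma) and -0.19 for ACSS2 (95% interval -0.73 to 0.35, adjusted p = 0.878 in limma). The upper ends of the CAB intervals lie under a 2-fold rise for both genes, whereas the MMQ intervals with BRC present start above it. These GH3 effects assume additive drugs, and that of ACSS2 averages CAB pairs of 0.68 and -0.17, so its interval rests on that assumption. limma called 0 of all tested probe sets (0%) in GH3 cells for either drug, with 862 at an unadjusted p under 0.05 for CAB and 976 for BRC.
CAB and BRC are both ergot derivatives that activate the dopamine D2 receptor, and CAB carries an acylurea side chain in place of the cyclic peptide of BRC. This was the only pair of compounds tested. At 50 μM in GH3 cells, where no time was found for the CAB array, MVD was at 119 with CAB and 163 with BRC, and limma put the log2 difference at -0.45 (95% interval -1.05 to 0.14, adjusted p = 0.981 in limma). ACSS2 was at 381 and 279.7, and its difference was 0.44 (95% interval -0.32 to 1.21, adjusted p = 0.981 in limma). The intervals allow a difference of about 2-fold in 1 direction for each gene, and limma called 0 probe sets (0%) for CAB minus BRC, with 691 at an unadjusted p under 0.05. At least 2-fold apart in this pair were 0.530% of all probe sets.

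The last comparison is between the lines. In the controls MVD was 1.73-fold higher in MMQ than in GH3 cells, and ACSS2 was at 184 in MMQ against 237 in GH3 cells. With CAB, MVD was at 1698 in MMQ cells against 119 in GH3 cells, 14.3-fold higher, and ACSS2 at 1331 against 381, 3.49-fold higher. At least 2-fold higher in MMQ cells were 7.75% of all probe sets in this pair, so the lines differed widely. The MMQ arrays of these comparisons, control and CAB, are those that identified the genes. The study reported more cell death with CAB in MMQ than in GH3 cells, so an equal dose need not mean equal toxicity. The part of this in the differences between the lines was not tested. With CAB+BRC, MVD was 6.67-fold and ACSS2 3.55-fold higher in MMQ cells, among 8.82% of all probe sets. These arrays did not enter the identifying ratio, but the MMQ values were known when the genes were chosen. With BRC alone MVD was at 197 and 163 and ACSS2 at 173 and 279.7, in the order MMQ and GH3, log2 differences of 0.27 and -0.69. ACSS2 was thus higher in MMQ cells with CAB and CAB+BRC and lower there in the other pairs, whereas MVD was higher in MMQ cells in all 4 pairs.
The difference between the CAB effect in MMQ cells with BRC present and the CAB effect in GH3 cells was 2.52 for MVD (standard error 0.315, 95% interval 1.79 to 3.24, adjusted p = 0.0660 in limma, unadjusted p = 4.19e-05). For ACSS2 it was 2.09 (standard error 0.407, 95% interval 1.15 to 3.02, adjusted p = 0.229 in limma, unadjusted p = 0.000872). Neither passed over all 14147 probe sets, of which 0.00707% passed as higher, or 1 probe set. Over all 8 arrays, which include the identifying pair, the difference was 2.75 for MVD (adjusted p = 0.0301 in limma) and 2.34 for ACSS2 (adjusted p = 0.0729 in limma).

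**Figure D4:**
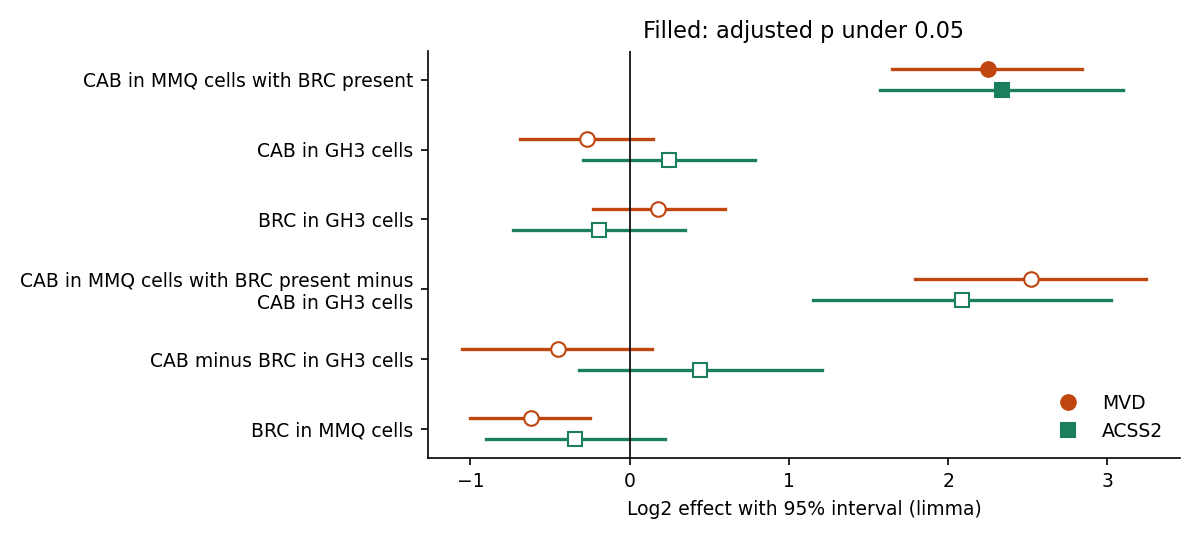
Log2 effects of MVD (circles) and ACSS2 (squares) with 95% intervals from limma for the 6 comparisons tested, the last from all 8 arrays and the others from the 6 arrays that did not identify the genes. Filled symbols passed at an adjusted p under 0.05, which both genes did for CAB in MMQ cells with BRC present, at 2.25 and 2.34, and in no other comparison.

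As to how alike the profiles were, MVD and ACSS2 had a Pearson's r of 0.853 and a Spearman's rho of 0.262 over the 8 arrays, which share 2 cell lines and are not replicates. Both genes were chosen for a high ratio of MMQ CAB to MMQ control, so this r follows in part from their choice. Without those 2 arrays r was 0.784 and rho 0.029. Both values rest on the MMQ arrays with CAB. Without MMQ CAB and MMQ CAB+BRC, r was -0.849 over the other 6 arrays, in which MVD was higher in MMQ cells and ACSS2 in GH3 cells. Without MMQ control and MMQ CAB, 2661 probe sets were closer to MVD by Pearson's r than ACSS2 was, and 513 were closer to ACSS2 than MVD was, so many other probe sets had more similar profiles. With all 8 arrays these were 906 and 169.
Among 18 other identified genes of the study's lists, the 5 with the highest Pearson's r to the mean profile of MVD and ACSS2 were RSAD2 (0.962), CCL7 (0.903), SQSTM1 (0.870), LGALS3 (0.816) and GPNMB (0.814). RSAD2 is an interferon-induced antiviral enzyme, CCL7 a chemokine, SQSTM1 an autophagy receptor, LGALS3 a galectin and GPNMB a membrane glycoprotein. All 5 had been identified by a higher ratio in the same MMQ pair, so a high r follows in part from their choice. The closest, RSAD2, was at 235 in the CAB array of MMQ cells, 159 in the CAB+BRC array and 18.0 in the control, and between 29.6 and 39.6 in GH3 cells. SQSTM1 had the same order of the 2 top arrays as MVD and ACSS2, at 2433 with CAB and 1498 with CAB+BRC. CCL7 had the opposite order, at 205 and 437, and GPNMB was at 2267 and 2237. LGALS3 had also been identified by its ratio of GH3 BRC to GH3 control, and in the GH3 arrays it was higher than the control with each treatment, at 124 in the control against 425 for BRC, 305 for CAB and 418 for the combination, while MVD was at most 1.09-fold above its control there. Without MMQ CAB and MMQ CAB+BRC the r of the 5 genes to the mean profile lay between -0.271 and 0.179. MVD and ACSS2 had an r of -0.849 with each other over those arrays, so their changes largely cancel in that mean. These low values therefore do not tell whether the 5 genes resemble either gene there.

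**Figure D5:**
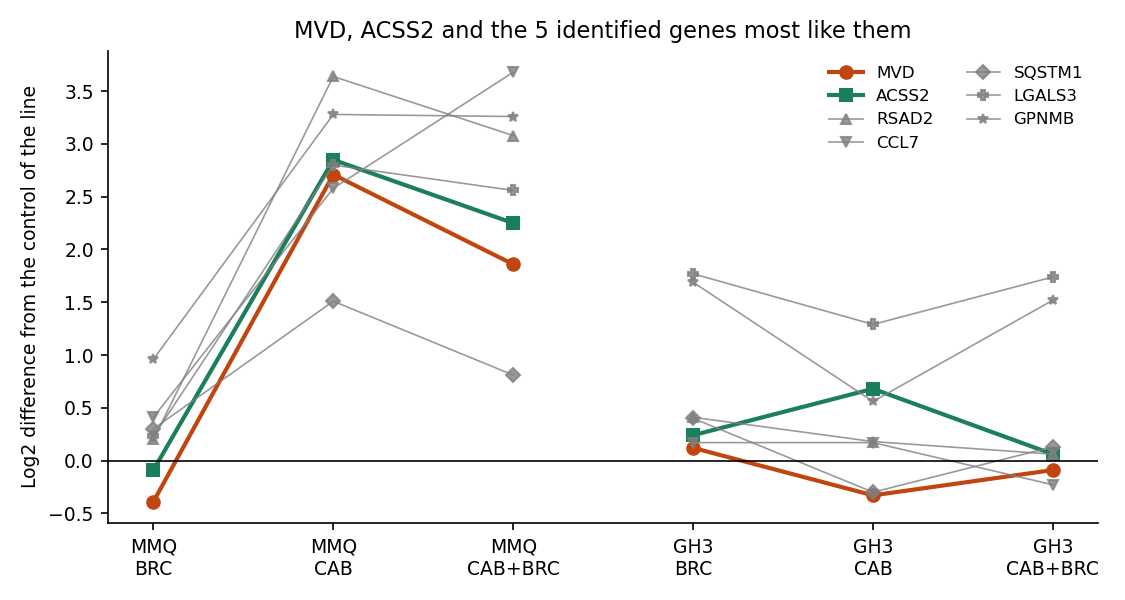
Log2 difference from the control of the same line for MVD (circles), ACSS2 (squares) and the 5 identified genes with the most similar profile (grey), at each treatment in MMQ and GH3 cells. All 7 genes are highest with CAB or CAB+BRC in MMQ cells, and in GH3 cells LGALS3 and GPNMB lie above the others with BRC and CAB+BRC while MVD and ACSS2 stay between -0.33 and 0.68.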

How the data were processed

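RNA of GH3 and MMQ cells was measured on 8 Affymetrix rat genome arrays, 1 per condition. The deposited values are linear intensities, 1 for every probe set on every array, from the Command Console software of Affymetrix. How the authors summarized, background-corrected or scaled them was not stated in the sources read. No detection calls were used. Samples were grouped from the labels. Log2 of intensity + 1 was taken for all 28295 probe sets. The members and lists were chosen with earlier results of these data known. Of the 26 entries of the study's gene lists, 24 matched exactly 1 probe set, 23 distinct ones, and 3 of these entries are not reported here. The annotation's symbol agreed for 0 of them. The rule for named genes took MVD, ACSS2 and the 5 reportable entries most like them. Differences of 2-fold or more between single arrays were counted, as in the methods. No p-value comes from 2 single arrays.

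limma 3.58.1 (lmFit and eBayes, R 4.3.3) tested 14147 probe sets, those whose mean exceeded the median of all means, two-sided, with Benjamini-Hochberg adjustment at 0.05. The CAB and GH3 comparisons used 6 arrays, without MMQ control and MMQ CAB. BRC in MMQ cells used all 8. Arrays are not stated to be separate cultures, so p-values measure only the spread between these arrays, which here is departure from additivity. The fits were tested on simulated data. Alternatives were quantile normalization, median centring, a pseudocount of 16, other filters, an intensity trend of the prior variance, all 8 arrays and each array left out. Promoters were read from RefSeq (GRCr8).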

Additional observations from a re-analysis of the deposited data

Results flagged for a closer look

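MVD was set apart because its CAB differences ran in opposite directions in the lines. In MMQ cells they were 2.71 (CAB against control) and 2.25 (CAB+BRC against BRC) on the log2 scale, and in GH3 cells -0.33 and -0.21 for the same pairs. At least as far apart as MVD in the GH3 pairs were 28.3% and 25.9% of all probe sets. The GH3 effect of CAB was -0.27 (95% interval -0.69 to 0.15, adjusted p = 0.805 in limma), so a fall in GH3 cells is not shown. The 2.71 is the difference that identified the gene. The contrast between the lines itself was tested, on arrays outside the identifying ratio, and was 2.52 (adjusted p = 0.0660 in limma), which did not pass over all probe sets. The MMQ CAB+BRC value of MVD in that test was known when the gene was chosen. For ACSS2 the GH3 pairs had differences of 0.68 and -0.17, so they did not oppose the MMQ pairs together.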

How the results depend on the processing

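For CAB in MMQ cells with BRC present, limma called 106 probe sets, and 25 with median centring, 1 with a pseudocount of 16, 2 with probe sets above the lower quartile, 0 with all probe sets (1820 at an unadjusted p under 0.05) and 628 with all 8 arrays. The call of MVD was lost with a pseudocount of 16 (log2 effect 2.16, adjusted p = 0.0649), with probe sets above the lower quartile (2.25, adjusted p = 0.0816) and with all probe sets (2.25, adjusted p = 0.196). That of ACSS2 was lost with median centring (2.35, adjusted p = 0.0596), a pseudocount of 16 (2.24, adjusted p = 0.0774), probe sets above the lower quartile (2.34, adjusted p = 0.0987) and all probe sets (2.34, adjusted p = 0.207). The cause was not tested. For this effect minus that in GH3 cells, 2 probe sets were called, and 0 with median centring, a pseudocount of 16, all probe sets or the lower quartile, and 20 with all 8 arrays, where MVD passed (2.75, adjusted p = 0.0301). For BRC in MMQ cells the count was 0 to 2 with 1 array left out, where it was 2 without the MMQ CAB or the MMQ CAB+BRC array. The r of MVD and ACSS2 was 0.680 to 0.926 with 1 array left out, 0.680 being without MMQ CAB, and -0.849 without MMQ CAB and MMQ CAB+BRC, an alternative added after seeing the data. The 96 alternatives of the log2 differences in pairs moved by at most 0.16. The 6-array fit has 1 residual degree of freedom, from the GH3 arrays, so leaving out a GH3 array gave no fit, and leaving out either MMQ array gave no CAB effect in MMQ cells. No paired analysis was possible because each condition has 1 array and the labels give no replicate numbers. No signal over background is given for the arrays, so how it limits low values is not known.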
